A study of Mus musculus with 6 samples.

Results

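The genes described here are 10 genes of prostanoid synthesis, transport, reception and inactivation, picked by symbol: *Slco2a1*, *Ptgs1*, *Ptgs2*, *Ptges*, *Ptges2*, *Ptges3*, *Ptgis*, *Ptger4*, *Ptgir* and *Hpgd*. Of these, 9 had a row among the 24080 genes of the table of normalized counts, and *Hpgd* was not analysed here. RNA sequencing compared 3 libraries of VEC-null cells with 3 libraries of VEC-positive cells. VEC is vascular endothelial cadherin, the adhesion protein of endothelial adherens junctions, encoded by *Cdh5*. VEC-null cells are endothelial cells (ECs) obtained from mouse embryonic stem cells with both copies of the *VEC* gene mutated, and VEC-positive cells are these same null cells after wild-type *VEC* was added with a retrovirus. Both groups therefore share the null background, both were grown as cell lines with no other treatment named, and each is described as 1 line. The p-values thus measure the spread between libraries and do not separate VEC from any other difference between the lines.

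Prostanoids are short-range lipid signals made from arachidonic acid, which phospholipases release from membranes. The cyclooxygenases COX-1 (*Ptgs1*) and COX-2 (*Ptgs2*) turn it into PGH2, and terminal synthases turn PGH2 into PGE2, prostacyclin and the other prostanoids. Prostanoids act on G protein-coupled receptors at the cell surface, and the signal ends when a carrier brings the prostaglandin into the cell and 15-hydroxyprostaglandin dehydrogenase (*Hpgd*) oxidises it. Endothelium is known for prostacyclin, which relaxes vessels and restrains platelets.

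The libraries held 6036155 to 14136376 reads. *Cdh5* ran against the labels, at 1334, 1439 and 1689 normalized counts under the VEC-null label against 794, 739 and 749.7 under the VEC-positive label (log2 fold change -0.96, adjusted p = 0.000182 from limma), and a table by gene holds no exons. Whether labels were exchanged, or whether reads of the mutated *VEC* copies make up these counts, was not tested, and directions below are therefore directions by label. VEC-null 3 stood apart, since its reads gave a chi-square of 50.5 and 48.6 per gene when set against VEC-null 1 and 2, and these gave 6.57 when set against each other. Mitochondrial transcripts took 9.62% to 14.9% of reads in VEC-null and 17.97% to 24.18% in VEC-positive libraries. All 8 endothelial markers were measured, 6 of them higher and *Cdh5* lower in VEC-positive, and their summed level was 44694 to 47541 against 63252 to 64996. Mural and fibroblast markers summed to 71.8 to 94.9 against 195 to 208 (7 of 8 had a row, and *Pdgfrb* was the 1 that passed as higher). *Pdgfrb* had 1.53, 0 and 1.77 in VEC-null and 95.6, 118 and 102 in VEC-positive libraries. Mean levels of *Pdgfra*, *Myh11* and *Des* were also higher in VEC-positive, and those of *Acta2*, *Tagln* and *Rgs5* were lower. Platelet markers summed to 42.8 to 68.3 against 99.4 to 133 (4 of 5 had a row, and *Itga2b* was the 1 that passed as higher). *Pf4* went the other way, at 9.18, 15.0 and 14.2 in VEC-null against 7.0, 2.92 and 4.84 in VEC-positive libraries. *Gp1bb* and *Gp9* had higher means in VEC-positive. Pluripotent cell markers (2 of 4 with a row) summed to at most 9.18 and 11.3, and epithelial markers (4 of 4) to at most 7.09 and 2.42. The part of these markers and of the mitochondrial share in the results below was not tested. In bulk RNA, fewer cells that express a gene and less RNA per cell cannot be told apart.

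Of the 9 prostanoid genes with a row, 5 reached the level for testing, which asked for 3 or more libraries with 10 or more normalized counts. Tested with limma on log2 values, *Slco2a1*, *Ptgs2* and *Ptges3* were higher in VEC-positive cells, none was lower, and *Ptgs1* and *Ptges2* did not pass at an adjusted p of 0.05. Over all 14032 tested genes, 20.9% were higher, 16.4% were lower and 37.3% passed in either direction. These shares stood for 2927 higher and 2304 lower genes, which became 1566 and 4960 with libraries scaled to equal totals, and the 3 prostanoid genes stayed higher under that scaling. The median log2 fold change was 0.57 over the 5 genes and -0.01 over all tested genes. *Ptges*, *Ptgis*, *Ptger4* and *Ptgir* were below the level for testing. The 3 genes that rose belong to 3 different steps, uptake, cyclooxygenase and an hsp90-associated protein named for PGE synthase activity.

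**Figure D1:**
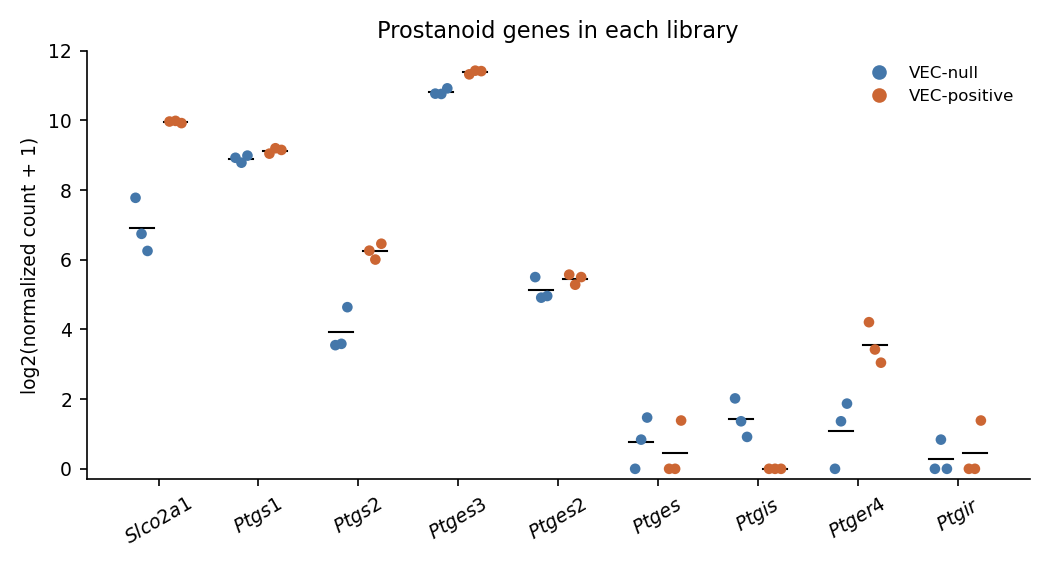
The plot shows log2(normalized count + 1) on the y axis for the 9 prostanoid genes with a row, with 1 point per library and a bar at each group's mean. *Slco2a1* and *Ptgs2* separate widely, *Ptges3* is high in both groups, and *Ptges*, *Ptgis* and *Ptgir* lie near 0 in both.

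*Slco2a1* (ENSMUSG00000032548, chromosome 9 of mm10 from 102988712 to 103096002, plus strand) encodes the prostaglandin transporter, a carrier that takes prostaglandins from outside into the cell. Its normalized counts were 219, 106 and 75.4 in VEC-null 1, 2 and 3, against 1002, 1015 and 971 in VEC-positive 1, 2 and 3. The groups lay far apart. VEC-positive libraries were close to each other (996 ± 22.7, SD, n = 3), whereas VEC-null libraries were spread (133 ± 75.5, SD, n = 3) with VEC-null 1 the highest. The log2 fold change was 3.03 (standard error 0.33, 95% interval 2.28 to 3.79, adjusted p = 0.000243 from limma). All 18 alternative analyses kept it past the test, with log2 fold changes from 2.70 to 3.46. The study itself prints *Slco2a1* among endothelial genes that it picked on these libraries, so its direction is not independent evidence.

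Among 9359 genes with an adequate level, those whose profile over the 6 libraries was nearest to that of *Slco2a1* were *Emilin1*, *Ip6k3*, *Fabp4*, *Cbr2* and *Slco4a1*. Likeness was the root mean square difference of log2 values centred on each gene's mean, at 0.23 for *Emilin1*, 0.29 for *Ip6k3* and *Fabp4* and 0.31 for *Cbr2* and *Slco4a1*. In each of these genes, as in *Slco2a1*, VEC-null 1 was the highest of the VEC-null libraries and VEC-null 3 the lowest. Since the genes were picked by likeness over these same libraries, the shared order follows in part from the choice. *Fabp4*, which encodes a fatty acid-binding protein, ran from 614, 532 and 381 in VEC-null to 4656, 4742 and 4543 in VEC-positive libraries. *Slco4a1*, of the same family of organic anion carriers as *Slco2a1*, ran from 15.3, 11.0 and 10.6 to 127, 119 and 107.

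Promoter sequences are given for *Slco2a1*, *Ptgs1*, *Ptgs2* and *Ptges3*, the 3 genes that rose and the COX-1 gene beside the COX-2 gene, since the amount of RNA was the readout and the sequences differ in their start-site features. Each runs 5′ to 3′ on the gene's strand (plus for all 4), from 250 bases before to 50 bases after the RefSeq start (GRCm38.p6), at chr9:103008237-103008536, chr2:36230176-36230475, chr1:150099781-150100080 and chr10:128058732-128059031 in this order. Capitals mark letters found by search on both strands.
*Slco2a1*: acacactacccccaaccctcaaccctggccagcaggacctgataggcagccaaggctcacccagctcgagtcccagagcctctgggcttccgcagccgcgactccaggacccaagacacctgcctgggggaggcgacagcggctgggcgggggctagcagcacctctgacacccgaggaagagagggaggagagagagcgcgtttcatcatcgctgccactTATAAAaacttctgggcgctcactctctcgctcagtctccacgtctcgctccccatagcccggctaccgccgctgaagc
*Ptgs1*: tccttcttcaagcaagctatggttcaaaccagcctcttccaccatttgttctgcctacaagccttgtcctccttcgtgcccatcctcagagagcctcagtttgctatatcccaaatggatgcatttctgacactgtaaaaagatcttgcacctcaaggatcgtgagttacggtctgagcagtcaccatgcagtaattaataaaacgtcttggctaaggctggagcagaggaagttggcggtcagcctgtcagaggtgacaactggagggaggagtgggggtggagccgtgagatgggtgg
*Ptgs2*: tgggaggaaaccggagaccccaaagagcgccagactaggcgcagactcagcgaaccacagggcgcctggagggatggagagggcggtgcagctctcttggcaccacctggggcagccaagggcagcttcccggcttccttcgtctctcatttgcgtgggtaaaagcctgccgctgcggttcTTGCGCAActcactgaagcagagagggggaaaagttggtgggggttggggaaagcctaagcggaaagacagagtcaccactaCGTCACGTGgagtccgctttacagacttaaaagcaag
*Ptges3*: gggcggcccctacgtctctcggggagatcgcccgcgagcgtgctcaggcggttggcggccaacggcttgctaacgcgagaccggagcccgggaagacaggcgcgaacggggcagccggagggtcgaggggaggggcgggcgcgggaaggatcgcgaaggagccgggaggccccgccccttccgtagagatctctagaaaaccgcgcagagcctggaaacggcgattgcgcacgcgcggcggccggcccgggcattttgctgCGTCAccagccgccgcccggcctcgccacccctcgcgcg
The capitals in *Slco2a1* are the TATA box letters TATAAA, whose first base lies 29 bases before the start; 13.6% of all 32851 promoters of this length hold them. This RefSeq start lies 19775 bases inside the gene's outer start in GENCODE. In *Ptgs2*, the first capitals are TTGCGCAA, a palindrome bound by C/EBP factors, 69 bases before the start, held by 0.183% of promoters. The second are CGTCACGTG, in which the short CRE letters CGTCA (20.8% of promoters) and the E-box CACGTG (7.15%) overlap, from base 14 and base 17 after the start. *Ptges3* holds CGTCA from base 12 after the start. The FOXO letters TGTTTAC (3.65%), the TCF/LEF letters CTTTGA (16%) and the full CRE TGACGTCA (1.79%) were found in none of the 9 prostanoid promoters in the table. The E-box, short CRE and C/EBP letters were searched after the sequences had been read. The 4 promoters also differed in base content, with 64% G and C and 18 CpG in *Slco2a1*, 50.7% and 6 in *Ptgs1*, 59.3% and 16 in *Ptgs2*, and 73.7% and 46 in *Ptges3*, against a median of 52.7% G and C over all promoters. A match is a description of letters, and its absence says only that these letters are not in this window.

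Both cyclooxygenase genes were measured. *Ptgs2* (ENSMUSG00000032487, chromosome 1 from 150100031 to 150108227), the inducible COX-2 gene whose promoter is printed above, had 10.7, 11.0 and 23.9 normalized counts in VEC-null and 75.8, 63.3 and 87.2 in VEC-positive libraries. All VEC-positive values lay above all VEC-null values, and VEC-null 3 was the highest of its group. The means were 15.2 ± 7.55 and 75.4 ± 11.9 (SD, n = 3 each), and the log2 fold change was 2.32 (standard error 0.34, 95% interval 1.54 to 3.09, adjusted p = 0.0011 from limma). The gene rested on 48 VEC-null and 238 VEC-positive reads, whose ratio after scaling was 4.84 (95% counting interval 3.54 to 6.75). It passed in all 18 alternatives, at log2 fold changes of 2.02 to 2.68. At the stricter filter of 50 normalized counts it was tested through its VEC-positive libraries alone, so its entry there depends on the group difference itself.

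*Ptgs1* (ENSMUSG00000047250, chromosome 2 from 36230426 to 36252272), the constitutive COX-1 gene, was the more abundant of the pair. It had 487, 441 and 508 normalized counts in VEC-null and 528, 588 and 569 in VEC-positive libraries. These groups did not overlap, but the gap between VEC-null 3 and VEC-positive 1 was small beside the spread within each group. The log2 fold change was 0.23 (95% interval 0.03 to 0.44, unadjusted p = 0.0318, adjusted p = 0.0758 from limma), so it did not pass. Without VEC-null 3 it passed (0.28, adjusted p = 0.0233), and with libraries scaled to equal totals the sign turned (-0.08). Over the other alternatives its adjusted p also stayed above 0.05.

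Per kilobase of exon, *Ptgs2* stood at 1.87%, 2.12% and 4.0% of *Ptgs1* in VEC-null 1, 2 and 3 and at 12.2%, 9.13% and 13.0% in VEC-positive 1, 2 and 3. COX-1 was thus the main cyclooxygenase transcript in each of the 6 libraries, and the share of COX-2 was higher in each VEC-positive library than in each VEC-null library. The group means of this ratio were 2.66% ± 1.16 and 11.4% ± 2.04 (SD, n = 3 each).

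Among terminal synthases, *Ptges3* (ENSMUSG00000071072, chromosome 10 from 128058954 to 128077272) was the abundant one. It encodes p23, a co-chaperone of hsp90 that also carries the name of cytosolic PGE synthase. Its normalized counts were 1746, 1735 and 1939.9 in VEC-null against 2563, 2759 and 2733 in VEC-positive libraries, with no overlap. The log2 fold change was 0.57 (standard error 0.076, 95% interval 0.40 to 0.75, adjusted p = 0.000688 from limma). All 18 alternatives kept it past the test, at log2 fold changes of 0.26 with equal totals to 0.62 without VEC-null 3. A processed pseudogene, *Ptges3-ps* on chromosome 6, held 26 to 74 reads per library, and how many reads could belong to either copy was not tested.

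*Ptges2* (ENSMUSG00000026820, chromosome 2 from 32395896 to 32405772), the membrane-associated PGE synthase 2 gene, had 44.4, 29.1 and 30.1 normalized counts in VEC-null and 46.7, 38.0 and 44.4 in VEC-positive libraries. VEC-null 1 lay within the VEC-positive range. The log2 fold change was 0.33, with a 95% interval of -0.22 to 0.88 (adjusted p = 0.319 from limma), and none of the 17 alternatives that tested it passed it.

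*Ptges*, the inducible microsomal PGE synthase 1 gene (ENSMUSG00000050737, chromosome 2 from 30889471 to 30929863, minus strand), had 0, 1 and 2 reads in VEC-null and 0, 0 and 2 in VEC-positive libraries. Neither group was above 3 reads in all, so no fold is given. *Ptgis*, the prostacyclin synthase gene (ENSMUSG00000017969, chromosome 2 from 167191805 to 167240604, minus strand), had 2, 2 and 1 reads in VEC-null libraries and 0 in each VEC-positive library. No fold is given at these counts, and fitted without the filter on low values *Ptgis* did not pass (adjusted p = 0.0628 from limma). The synthases for the inducible PGE2 route and for prostacyclin were thus at or near 0 in both groups at this depth.

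Of the receptor genes, *Ptger4* (ENSMUSG00000039942, chromosome 15 from 5206661 to 5244187, minus strand), which encodes the Gs-coupled PGE2 receptor EP4, had 0, 1.58 and 2.66 normalized counts in VEC-null and 17.5, 9.74 and 7.26 in VEC-positive libraries. The 3 VEC-positive values lay above the 3 VEC-null values, but only 1 of them reached 10, which left the gene below the level for testing. Over each group there were 5 and 34 reads, with a ratio after scaling of 6.64 (95% counting interval 2.59 to 21.8). Fitted without the filter, the log2 fold change was 2.48 (adjusted p = 0.018 from limma). A pseudogene on the opposite strand, *Gm15937*, shares 1015 exonic bases with *Ptger4* and had 8 to 20 reads per library. *Ttc33*, also on the opposite strand, shares 82 exonic bases and had 119, 237 and 202 reads in VEC-null against 391, 438 and 462 in VEC-positive libraries, so it was higher in the same libraries as *Ptger4*, and its part in the *Ptger4* counts was not tested. The kit keeps strand, but no source used here says whether the counting kept it too.

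*Ptgir*, the prostacyclin receptor gene (ENSMUSG00000043017, chromosome 7 from 16906490 to 16910905), had 0, 1 and 0 reads in VEC-null and 0, 0 and 2 in VEC-positive libraries. No fold is given at this level. Both the synthase and the receptor of prostacyclin were therefore at 5 reads or fewer in either group.

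**Figure D2:**
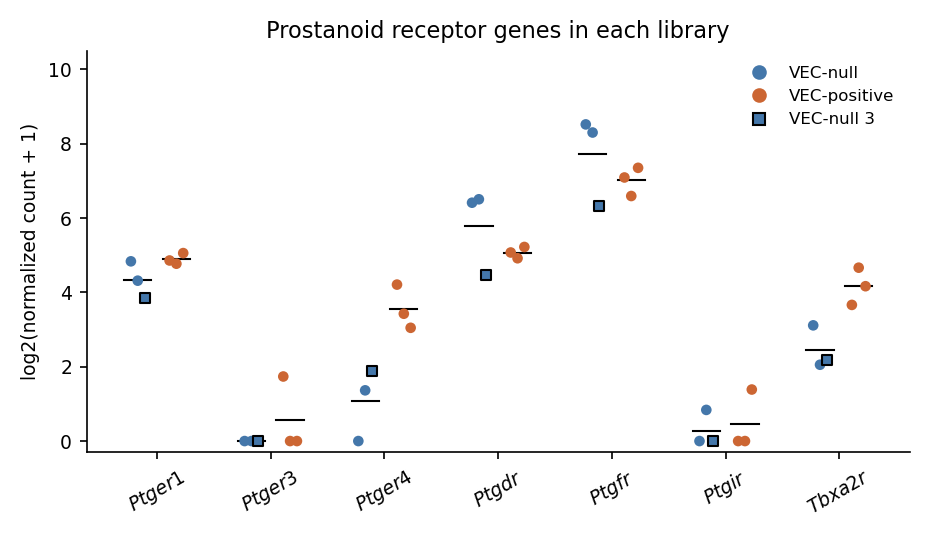
The plot shows log2(normalized count + 1) on the y axis for 7 prostanoid receptor genes, with 1 point per library, a bar at each group's mean and VEC-null 3 as a square. VEC-null 3 lies below VEC-null 1 and 2 in *Ptgdr* and *Ptgfr*, and all 3 VEC-positive points of *Ptger4* and *Tbxa2r* lie above the VEC-null points.

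The other prostanoid receptor genes comprised 7 listed genes, of which 5 had a row and 4 were tested. *Ptgfr*, the PGF2α receptor gene, was the most abundant receptor, at 366, 314 and 79.8 normalized counts in VEC-null and 135, 95.5 and 162 in VEC-positive libraries. It did not pass (log2 fold change -0.71, adjusted p = 0.329 from limma), and VEC-null 3 lay below all other libraries. Without VEC-null 3 the log2 fold change was -1.40 (adjusted p = 0.000549). *Ptgdr*, the PGD2 receptor gene, showed the same arrangement, at 84.2, 89.8 and 21.3 against 32.7, 29.2 and 36.3, and its log2 fold change went from -0.73 (adjusted p = 0.297) to -1.39 (adjusted p = 0.000639) without that library. Leukocyte and macrophage markers (5 of 6 with a row, none past the test) had a sum that was also high in VEC-null 1 and 2. Their sum was 438, 427 and 133 in VEC-null against 201, 143 and 177 in VEC-positive libraries. Of them, *Itgam* made up most of the sum (405, 389 and 83.3 in VEC-null), and without VEC-null 3 it passed as lower, the 1 marker of this list to do so (log2 fold change -1.59, adjusted p = 0.00013 from limma). By contrast, the leukocyte-defining *Ptprc* was at most 3.23 in any library. *Cd68* (10.7, 15.8 and 36.4 in VEC-null) and *Lyz2* (1.53, 1.58 and 3.55) were highest in VEC-null 3. *Csf1r* had 18.4, 19.7 and 9.75 in VEC-null against 33.8, 31.2 and 19.4 in VEC-positive libraries. The part of these markers in the receptor values was not tested. *Tbxa2r*, the thromboxane receptor gene, was the 1 that passed, at 7.65, 3.15 and 3.55 against 11.7, 24.4 and 16.9 (log2 fold change 1.71, adjusted p = 0.0201). It reached the level for testing through its VEC-positive libraries alone, and 20.9% of all tested genes were higher. *Tbxa2r* no longer passed without VEC-null 2, VEC-positive 2 or VEC-positive 3, with adjusted p-values of 0.0638, 0.0818 and 0.0649 from limma. With a replicate block in limma it did not pass either (adjusted p = 0.0648). *Ptger1*, the EP1 gene, had 27.5, 18.9 and 13.3 against 28.0, 26.3 and 32.3 and did not pass (adjusted p = 0.195), and *Ptger3* had reads in VEC-positive 1 alone.

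Per kilobase of exon, the tested prostanoid genes kept a similar order in both groups. In VEC-null cells *Ptges3* led (783 to 875 normalized counts per kilobase), followed by *Ptgs1* (114 to 131), *Slco2a1* (5.56 to 16.2), *Ptges2* (5.76 to 8.77) and *Ptgs2* (2.34 to 5.23). *Slco2a1* and *Ptges2* overlapped there, whereas the other neighbours did not. In VEC-positive cells the order was *Ptges3* (1156 to 1244), *Ptgs1* (136 to 151), *Slco2a1* (71.7 to 74.9), *Ptgs2* (13.8 to 19.0) and *Ptges2* (7.51 to 9.22), with no overlap between neighbours. By this measure *Ptgs2* stood below *Ptges2* in VEC-null and above it in VEC-positive cells. *Ptger4* was lower than all of the tested genes, at 0 to 0.40 and 1.09 to 2.63. The length counts each base of any annotated exon, 13545 for *Slco2a1*, 5058 for *Ptges2* and 4580 for *Ptgs2*. Transcripts in use can be shorter, so the order of genes close in level depends on this choice of length. Other lengths were not tested.

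Genes of other prostanoid transport and inactivation were all higher among those tested. Of 9 listed genes, 9 had a row, 6 were tested and 6 were higher in VEC-positive cells, with a median log2 fold change of 1.08, while with libraries scaled to equal totals 4 of the 6 passed. Over all tested genes, 20.9% were higher, and with equal totals 1566 of all 14032 were. *Slco4a1* rose by 3.17 on the log2 scale (adjusted p = 2.91e-05 from limma). *Slco3a1*, another carrier of this family that can transport prostaglandins, went from 883, 773 and 784 to 1475, 1439 and 1482 normalized counts (0.85, adjusted p = 9.91e-05). *Abcc4*, which encodes the prostaglandin exporter MRP4, went from 323, 343 and 393 to 554, 475 and 561 (0.59, adjusted p = 0.00397), and with equal totals it did not pass (0.28, adjusted p = 0.0847). *Ptgr2*, which reduces 15-keto-PGE2 downstream of *Hpgd*, went from 142, 153 and 184 to 398, 404 and 380.1 (1.31, adjusted p = 9.71e-05). *Cbr3*, a carbonyl reductase gene, and *Zadh2*, another prostaglandin reductase gene, both singled out once their values were known, changed by 1.71 and 0.51 on the log2 scale, and *Zadh2* did not pass with equal totals (adjusted p = 0.125).

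**Figure D3:**
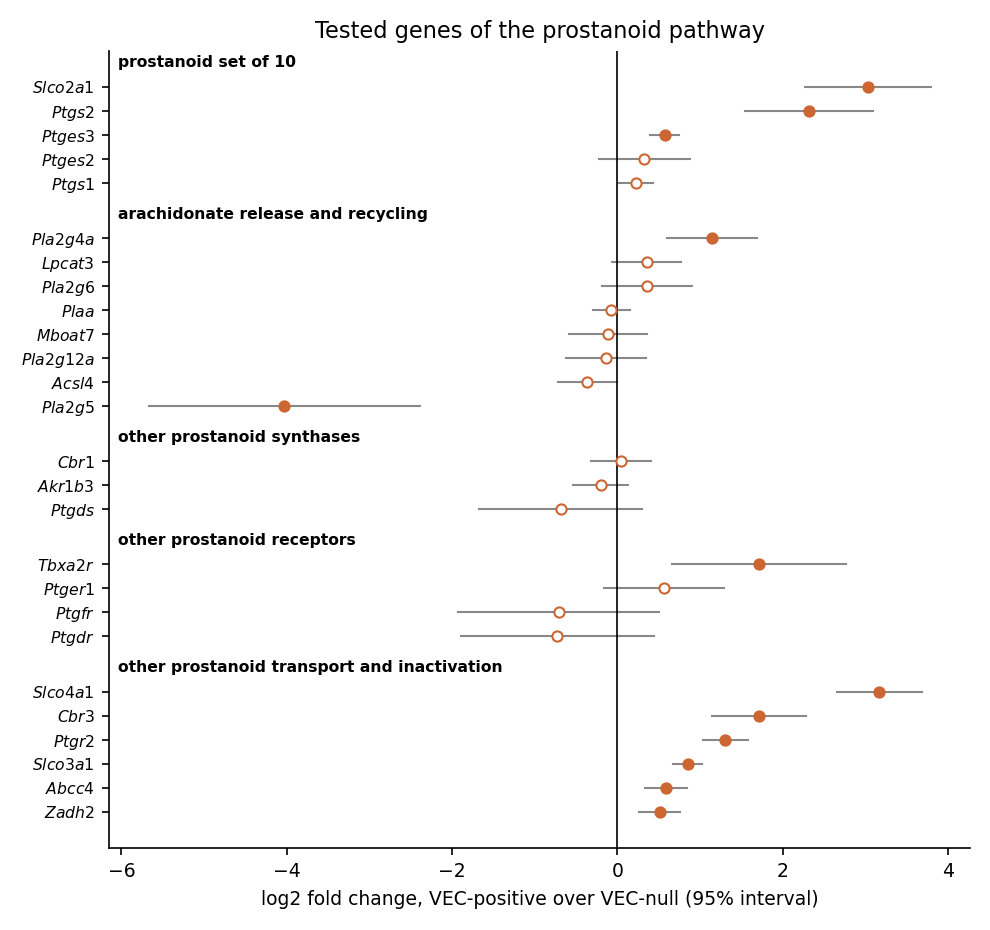
The plot shows the log2 ratio of VEC-positive to VEC-null levels on the x axis for the tested prostanoid genes and 4 wider gene lists, with 95% intervals as lines, filled points for an adjusted p of at most 0.05 and open points for the rest. All 6 tested genes of other transport and inactivation lie above 0, while *Pla2g5* lies lowest at -4.03.

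Upstream of the cyclooxygenases, 8 of 18 listed genes of arachidonate release and recycling were tested, 1 higher, 1 lower and 6 not past the test (median log2 fold change -0.09). These counts became 3 higher and 1 lower without VEC-null 3, and 1 higher and 3 lower with equal totals. Among all tested genes, 20.9% were higher and 16.4% lower as first counted. Without VEC-null 3, 3800 of all 14032 were higher and 3359 lower, and with equal totals these were 1566 and 4960. *Pla2g4a*, the gene of cytosolic phospholipase A2α that frees arachidonic acid, was the higher one as first counted, and went from 82.6, 124 and 170.2 to 253, 289 and 262 normalized counts (95% interval of the log2 fold change 0.60 to 1.69, adjusted p = 0.00656 from limma). *Pla2g5*, a secreted phospholipase gene singled out once its values were known, fell from 36.7, 42.5 and 70.04 to 0, 6.82 and 2.42 (-4.03, adjusted p = 0.003). It reached the level for testing through its VEC-null libraries alone. *Acsl4*, which reattaches arachidonate to coenzyme A, did not pass (-0.36, adjusted p = 0.107 from limma). It did pass with equal totals (-0.67, adjusted p = 0.00731), also without mitochondrial transcripts in the totals (-0.51, adjusted p = 0.0446). The same held without VEC-null 1 (-0.51, adjusted p = 0.0315) and with DESeq2 (-0.41, adjusted p = 0.0398).

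None of the 3 tested genes among 6 other prostanoid synthases passed. *Akr1b3*, an aldose reductase with PGF synthase activity, and *Cbr1*, which reduces PGE2, had log2 fold changes of -0.20 and 0.04 (adjusted p = 0.315 and 0.86 from limma), and *Cbr1* had -0.27 with equal totals. *Akr1b3* passed with equal totals (-0.51, adjusted p = 0.0182). *Ptgds*, a PGD2 synthase gene, stood at 15.3, 7.88 and 16.8 against 7.0, 10.7 and 5.65 normalized counts (-0.68, adjusted p = 0.248). *Hpgds*, the haematopoietic PGD2 synthase gene, was below the level for testing at 3.06, 1.58 and 0.89 against 5.83, 13.6 and 11.3, and *Tbxas1*, the thromboxane synthase gene, stayed under 5 in each library.

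EP4, the prostacyclin receptor and DP1 (*Ptgdr*) signal through Gs and cAMP. Of 26 listed genes of cAMP signalling, 19 were tested, with 6 higher, 3 lower and 10 not past the test (median log2 fold change 0.04), whereas with equal totals 3 were higher and 8 lower. The shares over all tested genes were 20.9% higher and 16.4% lower. With equal totals, 1566 of all 14032 tested genes were higher and 4960 lower. *Rapgef4* and *Rapgef3*, the cAMP-activated exchange factors Epac2 and Epac1, rose by 1.87 and 0.82 on the log2 scale (adjusted p = 1.41e-06 and 0.000261 from limma). *Rapgef4* had 482, 446 and 487 normalized counts in VEC-null and 1703, 1794 and 1692 in VEC-positive libraries. *Prkar2b*, a regulatory subunit of protein kinase A, went from 237, 250.4 and 273 to 530, 592 and 508 (1.10, adjusted p = 9.91e-05). The lower genes were all phosphodiesterases that degrade cAMP. *Pde4b* fell from 176, 208 and 227 to 139.96, 102 and 109 (-0.80, adjusted p = 0.0059). *Pde4a* and *Pde4c*, singled out once their values were known, stood at log2 fold changes of -1.52 and -2.80, and *Pde4c* did not pass when any of 4 single libraries was left out. *Pde4c* reached the level for testing through its VEC-null libraries alone. Per kilobase of exon it had 1.92, 1.97 and 1.90 in VEC-null against 0, 0.70 and 0 in VEC-positive libraries. *Prkacb*, a catalytic subunit, and *Creb1*, the cAMP-responsive factor, had log2 fold changes of 0.05 and 0.04 and did not pass, both turned negative with equal totals (-0.26 and -0.27), and *Creb1* passed without VEC-null 3 (0.18, adjusted p = 0.0366).

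**Figure D4:**
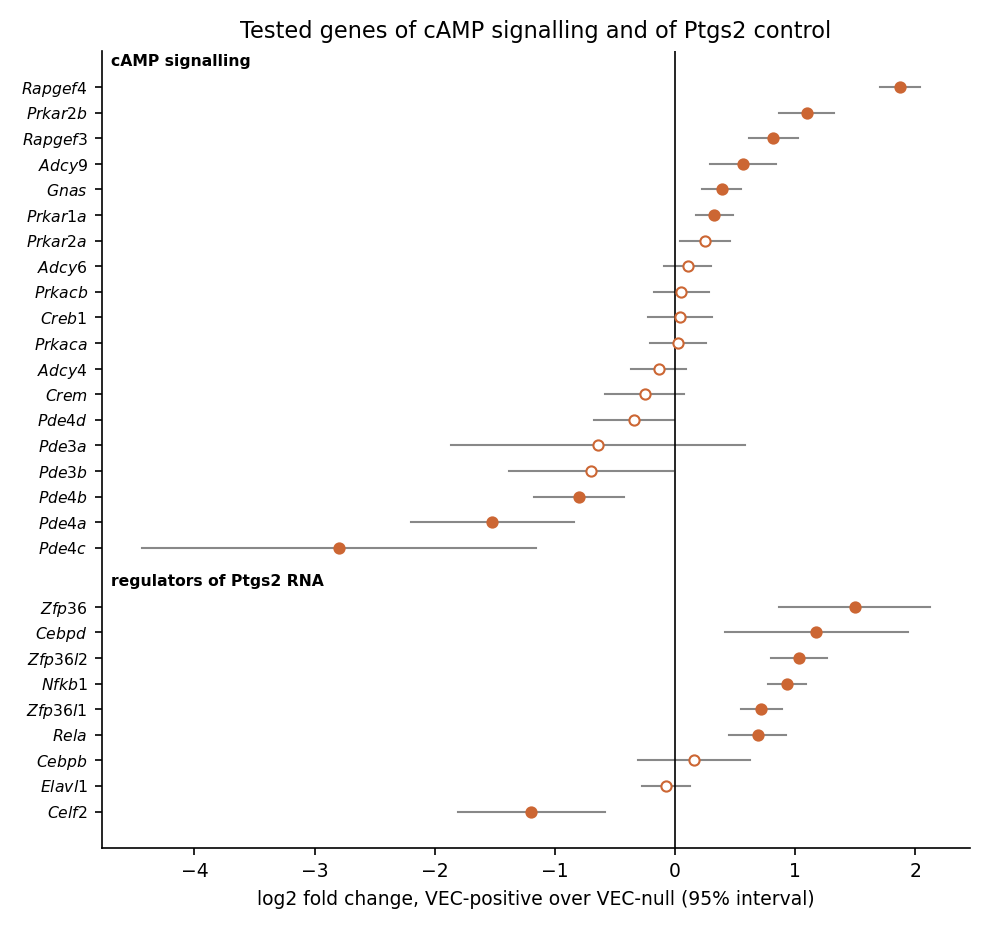
The plot shows the log2 ratio of VEC-positive to VEC-null levels on the x axis for the tested genes of cAMP signalling and of *Ptgs2* control, with 95% intervals as lines and filled points for an adjusted p of at most 0.05. *Rapgef4* lies highest and the 3 filled phosphodiesterase genes lowest in the upper block, and *Celf2* is the filled gene below 0 in the lower block.

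Regulators of *Ptgs2* transcription and RNA stability were mostly higher. Of 9 listed and tested genes, 6 were higher, 1 was lower and 2 did not pass (median log2 fold change 0.72), and with equal totals 5 were higher and 2 lower. For all tested genes the shares were 20.9% higher and 16.4% lower, and with equal totals 1566 of all 14032 were higher and 4960 lower. *Nfkb1*, an NF-κB subunit gene, went from 609, 618 and 632 to 1215, 1165 and 1168 normalized counts (0.93, adjusted p = 3.54e-05 from limma). *Zfp36l2*, of a family of proteins that bind AU-rich RNA and promote its decay, went from 1357, 1355 and 1684 to 2854, 2957 and 3135 (1.03, adjusted p = 0.000138). *Cebpd*, a C/EBP factor gene, rose by 1.18 on the log2 scale (adjusted p = 0.0241), which did not pass with equal totals or without VEC-null 2 or any single VEC-positive library (adjusted p of 0.0522 to 0.0887). *Celf2*, an RNA-binding protein known to bind *Ptgs2* RNA, fell from 176, 120.5 and 165 to 47.8, 62.3 and 95.2 (-1.19, adjusted p = 0.00914). *Cebpb* and *Elavl1*, which encodes the RNA-stabilising protein HuR, did not pass (0.16, and -0.15 with equal totals, for *Cebpb* and -0.07 for *Elavl1*), though *Elavl1* passed as lower with equal totals (-0.39, adjusted p = 0.00571).

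The p23 protein of *Ptges3* works with hsp90, and of 8 genes of hsp90 and its co-chaperones 2 were higher, none was lower and 6 did not pass (median log2 fold change 0.03), whereas with equal totals 4 were lower and none was higher. Of all tested genes, 20.9% were higher and 16.4% lower. With equal totals, 1566 of all 14032 were higher and 4960 lower. *Hsp90ab1*, the main hsp90 gene here, had a log2 fold change of -0.05 (95% interval -0.32 to 0.22) and *Hsp90aa1* one of 0.04. With equal totals these were -0.36 (adjusted p = 0.0425 from limma) and -0.27. *Stip1* and *Fkbp4* had log2 fold changes of 0.30 and 0.35 (adjusted p = 0.0109 and 0.0325 from limma), below the 0.57 of *Ptges3*, and *Fkbp4* did not pass in 10 alternatives. *Stip1* did not pass under either scaling to totals or without VEC-positive 1 or 2.

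The lipoxygenase and epoxygenase routes use the same arachidonic acid. Of 17 listed genes, 6 were tested, with 2 higher, 1 lower and 3 not past the test, beside 20.9% higher and 16.4% lower of all tested genes. *Alox5*, the gene of 5-lipoxygenase itself, had no row. *Alox5ap*, which encodes the 5-lipoxygenase-activating protein, went from 33.7, 48.8 and 31.9 to 94.5, 125 and 96.03 normalized counts (log2 fold change 1.45, adjusted p = 0.00147 from limma). *Ephx1*, an epoxide hydrolase gene, went from 135, 139 and 179 to 385, 401 and 403 (1.40, adjusted p = 0.000104). *Alox12*, a 12-lipoxygenase gene, had 545, 439 and 104 in VEC-null against 220.4, 119.8 and 257 in VEC-positive libraries, so that VEC-null 3 was the lowest of all 6, and it did not pass (-0.62, adjusted p = 0.439) except without VEC-null 3 (-1.36, adjusted p = 0.0034). *Lta4h*, the leukotriene A4 hydrolase gene, was the lower one (-0.33, adjusted p = 0.023) and did not pass without any single VEC-positive library.

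**Figure D5:**
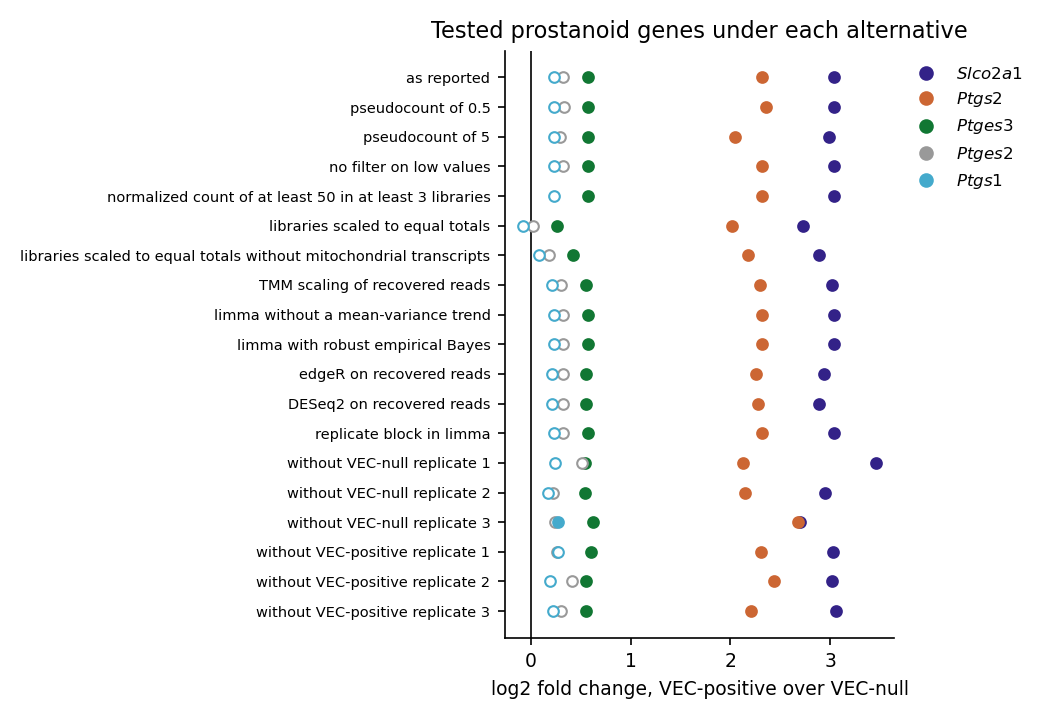
The plot shows the log2 ratio of VEC-positive to VEC-null levels on the x axis for the 5 tested prostanoid genes, with 1 row for the analysis as reported and 1 for each of 18 alternatives, and filled points for an adjusted p of at most 0.05. *Slco2a1*, *Ptgs2* and *Ptges3* are filled in each row, while *Ptgs1* is filled once, without VEC-null replicate 3, and lies below 0 with libraries scaled to equal totals.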

How the data were processed

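Total RNA of 3 VEC-null and 3 VEC-positive libraries, grouped by their labels, was prepared with a stranded kit and sequenced. The submitters' processing notes name Trim Galore, TopHat2 2.1.1, DESeq2 1.14 and mm10; the counting program and annotation were not given in the sources read here. The deposited signal values are the authors' gene counts after division by a size factor for each library. Since all values of a library were multiples of its step, 100% of them could be turned back into reads (within 0.01 of a read). Symbols and coordinates came from GENCODE M21 and promoters of 9 of the 10 genes from RefSeq (GRCm38.p6).

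The 14032 genes that reached 10 normalized counts in 3 or more libraries entered a two-sided limma 3.58.1 fit in R 4.3.3, on log2(normalized count + 1) with a trend of the variance on the mean. The Benjamini-Hochberg method adjusted p-values over all of them, and calls were made at 0.05. Some genes, such as *Pdgfrb*, *Tbxa2r*, *Pla2g5* and *Pde4c*, met the filter through the libraries of a single group. For these, entry to the test depends on the group difference itself. The script was tested on simulated data. Fold changes are on this scale, which understates changes of low genes. The 18 alternatives were other pseudocounts (0.5 and 5), no filter and a filter at 50, other scalings and variance models, a replicate block, the recovered reads in edgeR 4.0.16 or DESeq2 1.42.0, and the omission of each library in turn. PCR duplicates count as reads, so counting intervals cover counting error only. Figures were drawn with matplotlib 3.10.9.

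The prostanoid genes, the 8 wider lists and the rule for named genes were chosen with earlier results of these data known. The rule names, of each wider list, up to 4 genes past the test with the largest change and a mean of at least 50 and up to 2 that did not pass with the highest mean, with receptors and synthases added; some genes that it draws are left out.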

Additional observations from a re-analysis of the deposited data

How the results depend on the processing

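*Slco2a1*, *Ptgs2* and *Ptges3* kept their direction and passed in all 18 alternatives, though *Ptgs2* met the filter at 50 through VEC-positive libraries alone. With libraries scaled to equal totals the median log2 fold change of all tested genes moved from -0.01 to -0.32 (-0.16 without mitochondrial transcripts), and the genes past the test were 1566 higher and 4960 lower, against 2927 and 2304. In the wider lists, 19 genes were then lower (10 without mitochondrial transcripts), against 6. Leaving out single libraries gave 4 to 10 lower genes in these lists, the highest without VEC-null 3, 20 to 27 higher genes, and 3 or 4 higher prostanoid genes. Over all tested genes the same omissions gave 2111 to 3800 higher and 1585 to 3359 lower genes, both highest without VEC-null 3. The sign turned with equal totals for *Ptgs1* (-0.078), *Stip1* (-0.0072), *Cbr1* (-0.27), *Prkacb* (-0.26), *Creb1* (-0.27), *Cebpb* (-0.15) and *Hsp90aa1* (-0.27), and without mitochondrial transcripts in the totals for *Cbr1*, *Creb1* and *Hsp90aa1* (-0.10 each) and *Prkacb* (-0.093). With single libraries left out it turned for *Cbr1* (-0.089 to 0.15), *Prkacb* (-0.0079 to 0.15), *Creb1* (-0.025 to 0.18), *Hsp90aa1* (-0.031 to 0.13) and *Hsp90ab1* (-0.10 to 0.018). Among values of single genes, 877 kept their call and direction, 36 lost the call, 13 gained it and 19 changed sign. Deviations of same-numbered libraries from their group means had correlations of 0.08, -0.33 and -0.30, and differently numbered ones had -0.225 to 0.39. With 3 libraries per group, these values cannot show whether same-numbered libraries were paired. A replicate block left the log2 fold changes as they were (3.03 for *Slco2a1*) and gave 3 higher prostanoid genes, 22 higher and 6 lower wider genes, and 2400 higher and 1744 lower of all genes. The table keeps no read positions, so splicing and promoter use were not analysed here. Genes under about 10 normalized counts (*Ptges*, *Ptgis*, *Ptger4*, *Ptgir*) are limited by depth.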
